A study of Mus musculus with 2 samples.

Results

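The potassium channel genes of the mouse were taken as all protein-coding genes whose symbol in the GENCODE M21 annotation starts with Kcn. This rule gave 94 genes among the 21474 protein-coding genes of the tables, and all 94 were found by gene identifier in both libraries. Another 5 genes with a Kcn symbol are antisense transcripts and were left out. Of the members, 67 encode pore-forming subunits, 10 encode modulatory pore subunits that form channels only together with others, 16 encode accessory subunits and 1, Kcnrg, encodes a cytoplasmic regulator. The rule reads symbols and no measured value, but it was set with earlier results of these data known.

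Polyadenylated RNA longer than 200 nucleotides was sequenced from hearts of 8-week-old adult mice of the inbred strain C57BL/6J, as stranded paired reads of 76 nucleotides. The series holds 1 group of 2 libraries, replicates 1 and 2, from separate biosamples that share 1 donor record and that the labels give as pooled from males and females. No treatment, genotype or second tissue was compared, so the values below are levels per library and contrasts of 1 library with the other, and the spread between them may be partly technical. Replicate 1 held 57464573 and replicate 2 held 62912053 estimated counts.

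Potassium channels let potassium ions leave the cell and thereby end the cardiac action potential and set the resting voltage between beats. Voltage-gated channels (Kcna, Kcnb, Kcnd, Kcnh, Kcnq and relatives) open on depolarisation and repolarise the membrane, inward rectifiers (Kcnj) hold the resting voltage and answer to acetylcholine or to the energy state of the cell, and tandem-pore channels (Kcnk) carry a background leak. Adult mouse ventricle repolarises quickly and is known for large transient outward and slowly inactivating currents, carried by Kcnd, Kcna and Kcnb channels.

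The libraries did not match their shared label in every respect. Xist, the X-inactivation RNA of female cells, had 13725 counts in replicate 1 and 13 in replicate 2. The Y-linked genes Ddx3y, Eif2s3y, Kdm5d and Uty had 0 counts in replicate 1 and 922, 759, 777 and 458 in replicate 2. Sex therefore went with library, and the 2 cannot be told apart in any ratio between the libraries below. All 7 cardiomyocyte markers were detected in both libraries, and summed to 28512 TPM (a level per length of transcript, with 1 fixed sum per library) in replicate 1 and 33135 TPM in replicate 2. The 6 lung airway markers, among them Scgb1a1, summed to 0.89 and 2531 TPM in replicates 1 and 2, with Scgb3a2 at 0 counts in replicate 1, and the 4 erythroid markers to 4601 and 61712 TPM. Mitochondrial transcripts and their copies on chromosome 1 took 61.9% of the TPM of replicate 1 and 44.1% of that of replicate 2, which shifts the TPM of every nuclear gene between the libraries. Ratios between the libraries therefore use counts scaled by the TMM method, and ratios between genes are taken within a library. In a piece of tissue, fewer cells of a type and less RNA per cell cannot be told apart.

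The selectivity filter, a short stretch of the pore that lets potassium pass and holds sodium back, is what the pore-forming members share in sequence. In the coding sequence of the GENCODE M21 transcript with the longest coding part, 5 codons were searched that translate to threonine or serine, then isoleucine, valine, threonine, leucine or methionine, then glycine, then tyrosine, phenylalanine or leucine, then glycine. Such a run was found in 67 of 67 pore-forming genes, in 10 of 10 modulatory ones and in 0 of 16 accessory ones. The narrower form with threonine, isoleucine or valine, glycine, tyrosine and glycine was present in 38 of the pore-forming genes and in all 10 modulatory ones. All 14 Kcnk genes held the run at 2 places, and no other member did. The windows below come from 12 of the pore-forming genes on which the results turn. The filter codons are in capitals with 15 bases on either side, 5′ to 3′ along the coding strand. The windows show that genes of very different level carry such a run, while its codons and the bases beside it differ between genes.
Kcnk3, first pore: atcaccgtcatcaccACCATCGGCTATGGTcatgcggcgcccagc
Kcnk3, second pore: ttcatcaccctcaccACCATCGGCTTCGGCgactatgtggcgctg
Kcnh2: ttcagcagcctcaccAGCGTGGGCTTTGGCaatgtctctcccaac
Kcnq1: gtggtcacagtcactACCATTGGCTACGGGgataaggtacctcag
Kcna5: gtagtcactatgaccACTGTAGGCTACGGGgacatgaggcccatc
Kcnd2: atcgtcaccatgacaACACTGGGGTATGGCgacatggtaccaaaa
Kcnd3: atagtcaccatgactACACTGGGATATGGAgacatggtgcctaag
Kcnj11: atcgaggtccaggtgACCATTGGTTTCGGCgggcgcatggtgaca
Kcnj8: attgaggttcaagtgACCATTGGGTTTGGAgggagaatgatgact
Kcnj3: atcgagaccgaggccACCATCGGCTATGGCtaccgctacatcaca
Kcnj5: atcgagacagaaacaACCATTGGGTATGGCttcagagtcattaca
Kcnj2: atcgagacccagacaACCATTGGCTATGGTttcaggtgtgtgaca
Kcnj14: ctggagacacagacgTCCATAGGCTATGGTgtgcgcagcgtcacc

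Close relatives differed by more at the DNA level than these windows show. Kcnd2 and Kcnd3 shared 73.6% of 1872 aligned coding bases and 38 of the 45 bases of the window, Kcnj11 and Kcnj8 shared 73.2% and 35, Kcnj2 and Kcnj12 shared 72.9% and 35, and Kcnj3 and Kcnj5 shared 67.0% and 33. The rule by which reads shared between relatives were divided was not given in the sources used here.

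A level of at least 1 TPM in both libraries was reached by 23 of the 94 genes (24.5%), against 10677 of the 21474 protein-coding genes (49.7%). Only 1 of the libraries was at that level for Kcna1, Kcnab1 and Kcnj14, 59 genes had counts but stayed under 1 TPM in both, and 9 genes had 0 counts in both. The median over all members was 0.18 TPM in replicate 1 and 0.31 TPM in replicate 2, and over protein-coding genes 1.09 and 1.28 TPM. Over the 23 detected members it was 9.0 and 12.3 TPM, and over detected protein-coding genes 7.21 and 8.20 TPM. The limit of 1 TPM lay between Kcnmb1, with 1.11 and 1.13 TPM, and Kcna1, with 1.03 and 0.93 TPM.

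**Figure D1:**
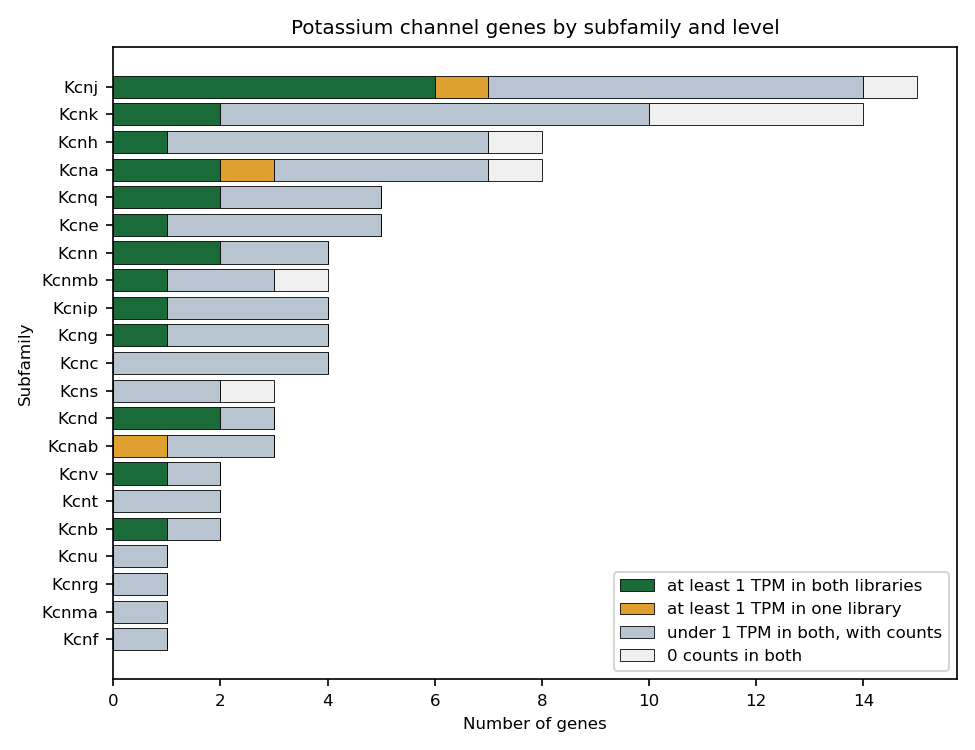
Number of potassium channel genes (horizontal axis) in each subfamily (vertical axis), coloured by level: at least 1 TPM in both libraries, in one of them, under 1 TPM in both with counts, and 0 counts in both. Kcnj, the inward rectifiers, had 6 of 15 genes at 1 TPM or more in both libraries, and Kcnk, the tandem-pore channels, had 2 of 14.

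A few genes held most of the RNA. All members together made up 0.0492% of the TPM of replicate 1 and 0.0675% of that of replicate 2 (0.0584% ± 0.0130, SD, n = 2). With mitochondrial genes and their copies left out the order of the libraries turned, to 0.129% in replicate 1 and 0.121% in replicate 2. Kcnip2, Kcng2, Kcnk3, Kcnh2 and Kcnj11 were the first 5 in both libraries and held 60.2% and 71.1% of the family's TPM in replicates 1 and 2. Pore-forming genes summed to 312 and 415 TPM, modulatory pore genes to 65.4 and 121 TPM and accessory genes to 114 and 139 TPM. By subfamily, Kcnj led with 148 and 170 TPM, followed by Kcnip with 97.1 and 115 TPM, Kcng with 62.0 and 120 TPM and Kcnk with 61.6 and 105 TPM. In 3 of these 4 subfamilies 1 gene accounted for nearly the whole sum, whereas the Kcnj sum was spread over 6 genes at 1 TPM or more in both libraries.

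**Figure D2:**
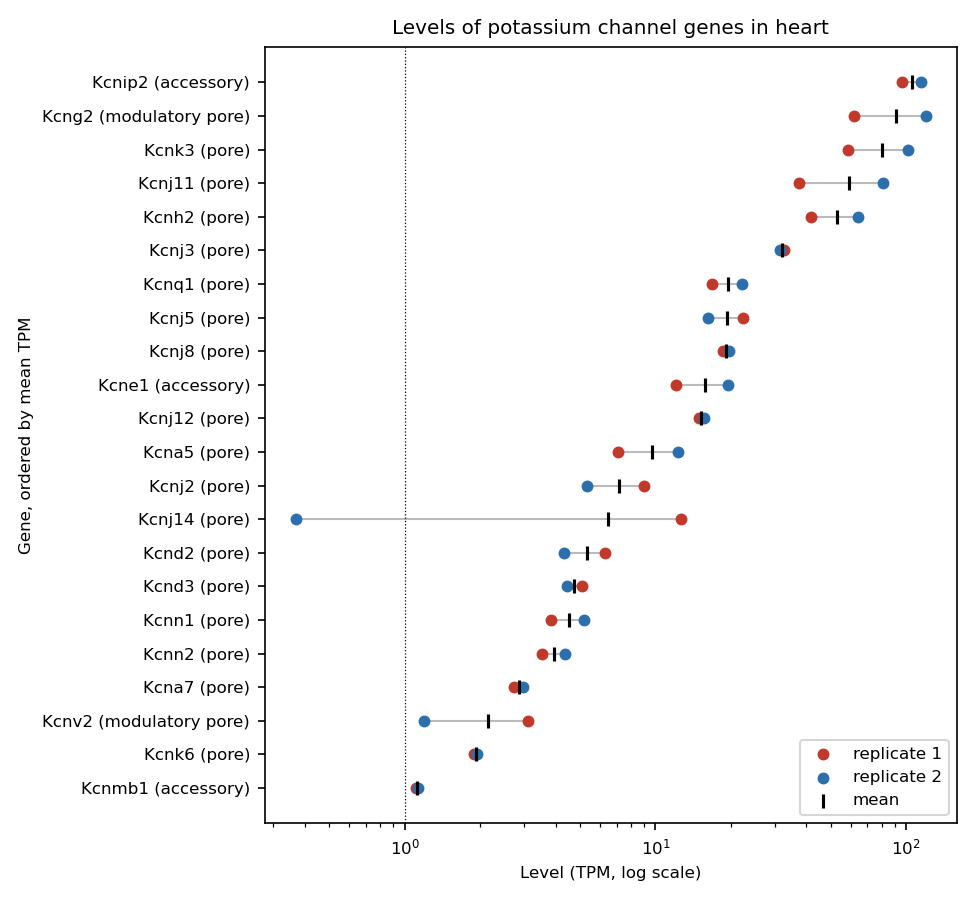
Level of 22 potassium channel genes with a mean of at least 1 TPM (horizontal axis, TPM on a log scale), ordered by mean, with 1 point per library and a bar at the mean of both; the dotted line marks 1 TPM. Kcnip2 led with 96.44 TPM in replicate 1 and 114.39 TPM in replicate 2, and the points of Kcnj14, 12.61 and 0.37 TPM, lay farthest apart.

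In the order of mean TPM, 8 of the 23 steps between neighbours differed within each library by a mean log2 ratio larger than its SD. Kcnip2 and Kcng2 did not: Kcnip2 was higher in replicate 1 and Kcng2 in replicate 2. Kcng2 was above Kcnk3, Kcnk3 above Kcnj11, Kcnh2 above Kcnj3 and Kcnj3 above Kcnq1 beyond that spread. The run from Kcnq1 through Kcnj5, Kcnj8 and Kcne1 to Kcnj12 had no such step between neighbours.

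Among accessory subunits, Kcnip2 encodes a calcium-binding protein that brings Kcnd channels to the membrane and slows their inactivation. It lies on chromosome 19 (mm10 positions 45791839 to 45816061, minus strand) and had 96.44 TPM from 12750 counts in replicate 1 and 114.39 TPM from 16108 counts in replicate 2. Its relatives Kcnip3 (0.46 and 0.61 TPM), Kcnip1 (0.08 and 0.09 TPM) and Kcnip4 (0.08 and 0.06 TPM) stayed under 1 TPM, and the log2 ratio of Kcnip2 over Kcnip3 was 7.63 ± 0.11 (SD, n = 2). Kcne1, the small membrane protein that joins Kcnq1 in the slow delayed rectifier, had 12.10 and 19.39 TPM. No other Kcne gene reached 1 TPM in either library: Kcne4 had 0.62 and 0.58 TPM, Kcne3 0.43 and 0.59 TPM, Kcne1l 0.40 and 0.35 TPM, and Kcne2, 67.1 kb from Kcne1 on chromosome 16, 0 and 0.01 TPM. Kcnmb1, the smooth muscle beta subunit of the large-conductance calcium-activated channel, had 1.11 and 1.13 TPM. Its pore gene Kcnma1 had 0.23 and 0.36 TPM, so that the accessory gene stood above the pore gene in both libraries, by 1.96 ± 0.44 on the log2 scale. Kcnab1, a beta subunit of Kcna channels, had 1.28 and 0.44 TPM but only 73 and 55 counts.

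The modulatory pore genes were nearly all low, with 2 exceptions. Kcng2 had 61.87 TPM in replicate 1 and 119.35 TPM in replicate 2 from 6417 and 11565 counts. A transcript of 279 nucleotides with 108 and 289 of those counts supplied 37.4% and 44.9% of this TPM, because TPM divides counts by a very small effective length. Its long transcript Kcng2-201 alone stood at 38.76 and 65.55 TPM, below Kcnk3 in both libraries, so the place of Kcng2 in the order depends on that short model. An unclassified gene on the opposite strand, D330025C20Rik, shares 272 exon bases with Kcng2 and had 425 and 843 counts; the use of strand in counting was not given in the sources used here. Kcnv2, known as a partner of Kcnb channels in photoreceptors, had 3.10 and 1.19 TPM. The next in this group, Kcns3, had 0.15 and 0.32 TPM, and Kcnf1 had 0.04 and 0.02 TPM.

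The voltage-gated pore genes of the delayed rectifiers were led by Kcnh2, the pore of the rapid delayed rectifier, on chromosome 5, with 41.61 TPM in replicate 1 and 64.42 TPM in replicate 2. Kcnq1, the pore of the slow delayed rectifier, had 16.81 and 22.19 TPM. The deposited credibility interval of Kcnq1 was wide upward, from 16.3 to 32.3 TPM in replicate 1 and from 22.2 to 60.9 TPM in replicate 2. Its short models Kcnq1-204 and Kcnq1-205 had 0 counts in both libraries. Of its posterior mean TPM, another deposited estimate, they held 22.5% and 0% in replicate 1 and 6.72% and 32.4% in replicate 2. Kcnq1 was lower than Kcnh2 in both libraries, with a log2 ratio of -1.42 ± 0.16, and slightly above its partner Kcne1, with a log2 ratio of 0.33 ± 0.20. By expected counts the mean log2 ratio of Kcnq1 over Kcne1 was 1.61. A model of 601 nucleotides held most of the TPM of Kcne1, so the size of this ratio depends on the measure. The long antisense RNA Kcnq1ot1 shares 121 exon bases with Kcnq1 and had 434 and 343 counts, against 2741 and 3879 counts of Kcnq1 itself. Kcnq3 and Kcnq5, known from neurons, stayed at or under 0.10 TPM in both libraries. The other 7 Kcnh genes reached no more than 0.20 TPM, and Kcnh5 had 0 counts.

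Genes of the fast repolarising currents stood lower. Kcnd2 and Kcnd3, the pores of the transient outward current, had 6.32 and 4.31 TPM and 5.08 and 4.43 TPM in replicates 1 and 2. Their order was not fixed by these libraries: Kcnd2 was higher in replicate 1 and Kcnd3 in replicate 2, with a log2 ratio of 0.14 ± 0.25. By counts Kcnd2 was higher in both libraries, with 1952 and 1405 against 1170 and 957. By posterior mean TPM Kcnd3 was higher in both, with 8.79 and 6.37 against 6.29 and 4.3. The order of Kcnd2 and Kcnd3 thus depended on the measure. Kcnip2 RNA exceeded Kcnd2 RNA by 4.33 ± 0.56 on the log2 scale. The deposited credibility interval of Kcnd3 reached up to 16.5 TPM in replicate 1 and 10.3 TPM in replicate 2 and thus far above the estimate. Kcnd3-205, a model of 199 nucleotides with 0 counts in both libraries, held 42.5% and 30.6% of the posterior mean TPM of Kcnd3. Kcnd1 had 0.40 and 0.31 TPM. Kcna5, the pore of an ultrarapid current, had 7.11 and 12.30 TPM. Kcna4, a pore of a transient current that is prominent in heart of other mammals, had 0.41 and 0.67 TPM, and Kcna5 exceeded it by 4.16 ± 0.06 on the log2 scale. Kcna7 had 2.74 and 2.97 TPM and Kcna1 1.03 and 0.93 TPM, whereas no gene of the Kcnc subfamily, pores of fast-firing neurons, reached 1 TPM in either library.

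Of the inward rectifiers, Kcnj11, the pore of the channel that ATP closes, had the highest TPM, on a short gene model. It lies on chromosome 7 and had 37.42 TPM from 2262 counts in replicate 1 and 80.46 TPM from 5161 counts in replicate 2. Kcnj8, the other pore of ATP-sensitive channels and the one of vascular muscle, had 18.63 and 19.65 TPM, and Kcnj11 exceeded it by 1.52 ± 0.73 on the log2 scale. The model of Kcnj11 in the tables was 1173 nucleotides long, about its coding part, and the longest one in GENCODE M21 is 3142 nucleotides; by counts Kcnj11 was below Kcnj3 and Kcnj5 on average (3712, 4660 and 5286). The sulfonylurea receptors are the regulatory partners of both pores: Abcc9, the form of muscle, had 34.69 and 30.23 TPM and Abcc8, best known from pancreatic islets, 10.90 and 13.38 TPM, a log2 ratio of 1.42 ± 0.35. Kcnj3 and Kcnj5, which together form the channel that acetylcholine opens through G proteins, had 32.41 and 31.42 TPM and 22.33 and 16.25 TPM. Kcnj3 was higher in both libraries by 0.74 ± 0.29 on the log2 scale. Both are atrial-rich in the mouse, and the 5 atrial markers summed to 2965 TPM in replicate 1 and 4704 TPM in replicate 2, with 1 of 5 called higher in replicate 2 by the test described below; the part of atrial tissue in the levels of both genes was not tested.

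Kcnj2 and Kcnj12, pores of the classical inward rectifier that holds the resting voltage, had 9.0 and 5.36 TPM and 14.88 and 15.61 TPM in replicates 1 and 2. Kcnj2 was lower in both libraries, with a log2 ratio of -1.13 ± 0.58. Before division by length Kcnj2, whose model is 5444 nucleotides long, had 2943 and 1847 counts and Kcnj12 had 1937 and 2149, so the order was the reverse in replicate 1 and the same in replicate 2. Kcnj3 likewise was below Kcnj5 by counts in replicate 1 (4712 and 5981) and above it in replicate 2 (4607 and 4590). Kcnj11 stood above Kcnj2 by 2.98 ± 1.31 on the log2 scale of TPM. By counts this mean was 0.55, and Kcnj11 was below Kcnj2 and Kcnj8 in replicate 1. Kcnj15 had 0.90 and 0.56 TPM, and no other Kcnj gene except Kcnj14 exceeded 0.16 TPM.

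Kcnk3, an acid-sensitive leak channel, was the main tandem-pore gene, with 58.58 TPM from 13180 counts in replicate 1 and 101.29 TPM from 24049 counts in replicate 2. Kcnk6 followed with 1.89 and 1.95 TPM and Kcnk2, a stretch-sensitive channel, with 0.64 and 0.82 TPM. The log2 ratio was -5.33 ± 0.53 for Kcnk6 over Kcnk3 and 6.73 ± 0.31 for Kcnk3 over Kcnk2. Of the other Kcnk genes 4 had 0 counts, namely Kcnk7, Kcnk9, Kcnk16 and Kcnk18. Among calcium-activated pores of small conductance, Kcnn1 had 3.85 and 5.21 TPM, Kcnn2 3.53 and 4.35 TPM, Kcnn3 0.71 and 0.48 TPM and Kcnn4 0.34 and 0.69 TPM. Kcnn2 exceeded Kcnn3 by 2.75 ± 0.61 on the log2 scale. Kcnt2, a sodium-activated channel, had 0.55 and 0.42 TPM, and Kcnu1, the channel of sperm, 0.04 and 0.12 TPM.

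**Figure D3:**
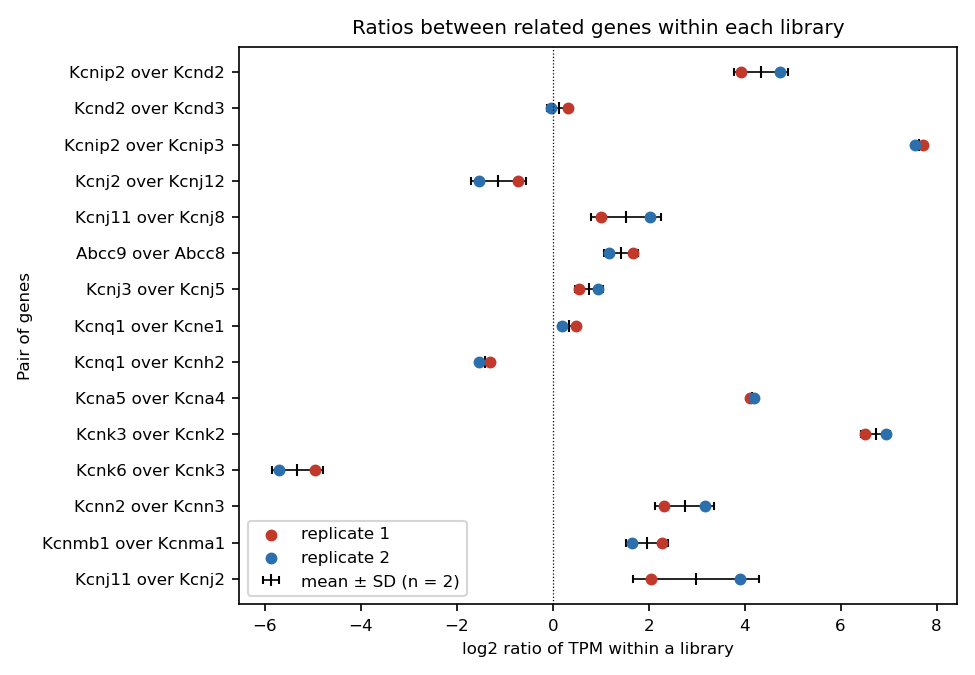
Log2 ratio of TPM of the gene named first over the gene named second within a library (horizontal axis) for 15 pairs (vertical axis), with 1 point per library and the mean ± SD (n = 2) in black. The first gene was higher in both libraries in 11 pairs, the second in 3, and Kcnd2 over Kcnd3 changed side between the libraries.

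The 15 pairs were described without a test, since an exact sign test on 2 libraries cannot give a p below 0.5. In 11 of them the first gene was higher in both libraries, and in Kcnj2 over Kcnj12, Kcnq1 over Kcnh2 and Kcnk6 over Kcnk3 it was lower in both.

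The 9 genes with 0 counts were Kcna10, Kcnh5, Kcnj6, Kcnk7, Kcnk9, Kcnk16, Kcnk18, Kcnmb3 and Kcns2. A count of 0 allows up to 3 counts, or 0.0555 CPM (counts scaled by library size) in replicate 1 and 0.0464 CPM in replicate 2, for counting error only. Some members that are neighbours in the genome stood at different levels. Of the family, 18 genes form 11 pairs whose starts lie within 200 kb of each other. In some pairs a gene at several TPM lies beside one near 0. In others both genes stayed under 1 TPM, among them Kcnj9 and Kcnj10, Kcnk5 and Kcnk16, and Kcna3 and Kcna2. Whether neighbours differ more often than other members was not tested. On chromosome 11 Kcnj2 lies 98.1 kb from Kcnj16, which had 0.01 and 0 TPM. On chromosome 9 Kcnj5 lies 28.1 kb from Kcnj1, which had 0 and 0.01 TPM. On chromosome 6 Kcna5 and Kcna1 lie 111 kb apart, and Kcna6, with 0.37 and 0.62 TPM, follows after another 94.3 kb.

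RefSeq promoters on GRCm38.p6, from 250 bases before to 50 bases after a gene's start, were given for 69 of the 94 members and 13 of the 23 detected ones. A window was called CpG-rich where the dinucleotide CG, the same on both strands, was at least 0.6 times as frequent as the content of C and G predicts and at least 50% of bases were C or G; for genes with several starts the one with most CG was taken. By this measure 2 of the 13 detected members were CpG-rich (15.4%), against 75.0% of 8445 detected protein-coding genes. Among the 56 other members with a promoter, 23 were CpG-rich (41.1%), against 24.2% of 7872 protein-coding genes that did not reach 1 TPM in both libraries, and over all members the share was 36.2%, against 50.5%. The 2 CpG-rich ones among the detected members were Kcnd2 and Kcnd3, with ratios of 0.740 and 0.923. The promoters of Kcnip2, Kcnh2, Kcnj3, Kcnj5, Kcnj8, Kcnj12 and Kcnj2 were not CpG-rich, with ratios between 0.165 and 0.555. Of these, Kcnip2 (0.541), Kcnh2 (0.555) and Kcnj2 (0.540) lay not far under the limit of 0.6. For Kcnh2 and Kcnj12 the window taken lay at a start inside the annotated gene, away from its outermost start. Promoters of Kcnk3, Kcng2 and Kcnj11 were not in the table.

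Transcripts of 1 gene were compared in the 12 members with a mean of at least 1 TPM and more than 1 annotated transcript. The same transcript led by TPM in both libraries in 11 of them, and the leading transcript was the longest in 4. Kcnip2 was led by Kcnip2-202, with 72.0% of its TPM in replicate 1 and 58.9% in replicate 2. Kcnip2-209, which carries 1 more coding exon, held 16.5% and 33.7%. Counts gave almost the same shares, 71.3% and 57.9% for Kcnip2-202 and 17.0% and 34.5% for Kcnip2-209. Kcnd3 has a similar choice: Kcnd3-201, with an additional exon, held 53.1% and 62.3% by TPM but 27.3% and 36.1% by counts, and Kcnd3-202, without it, 30.3% and 23.0% by TPM but 57.3% and 49.0% by counts. The order of these Kcnd3 transcripts thus depends on the division by length, since Kcnd3-202 is annotated with 7169 nucleotides and Kcnd3-201 with 2102. The exons in question, in capitals with 15 coding bases on either side, show what separates the transcripts. That of Kcnip2 has 54 bases (18 codons, mm10 chr19:45796279-45796332, minus strand) and that of Kcnd3 has 57 bases (19 codons, mm10 chr3:105666962-105667018, plus strand).
Kcnip2-209: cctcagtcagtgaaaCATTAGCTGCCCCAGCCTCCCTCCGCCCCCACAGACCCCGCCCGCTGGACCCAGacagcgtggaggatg
Kcnd3-201: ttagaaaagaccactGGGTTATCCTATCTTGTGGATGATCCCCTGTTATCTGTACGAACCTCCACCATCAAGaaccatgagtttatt

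Kcnh2 was led by the transcript with the shorter coding sequence. Kcnh2-202, with 2460 coding bases and its own first exon, took 57.7% of the TPM of replicate 1 and 54.2% of that of replicate 2, and Kcnh2-201, with 3486 coding bases, 25.1% and 23.6%. By counts the shares were 61.2% and 60.7% for Kcnh2-202 and 35.8% and 35.4% for Kcnh2-201, so the order held on both measures in both libraries. The first 60 coding bases, with the start codon in capitals, show that the 2 transcripts begin differently.
Kcnh2-202: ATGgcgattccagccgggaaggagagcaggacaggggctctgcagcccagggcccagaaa
Kcnh2-201: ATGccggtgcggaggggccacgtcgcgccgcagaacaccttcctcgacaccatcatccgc

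Other genes showed how short models weigh on TPM. Kcne1-202, of 601 nucleotides, held 63.7% and 80.8% of the TPM of Kcne1 but 19.1% and 36.4% of its counts, and encodes a coding sequence of the same length as Kcne1-201. Kcnj3-203, of 1679 nucleotides, held 73.1% and 77.7% by TPM and 46.3% and 51.6% by counts. Kcnq1-201 held 88.0% and 91.7% of TPM and 95.2% and 97.6% of counts. The exception in leadership was Kcnn2: the noncoding Kcnn2-202 held 47.0% in replicate 1 and 12% in replicate 2, and the coding Kcnn2-205 30.9% and 79.1%, while by counts Kcnn2-205 led in both, with 53.1% and 90.0%.

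**Figure D4:**
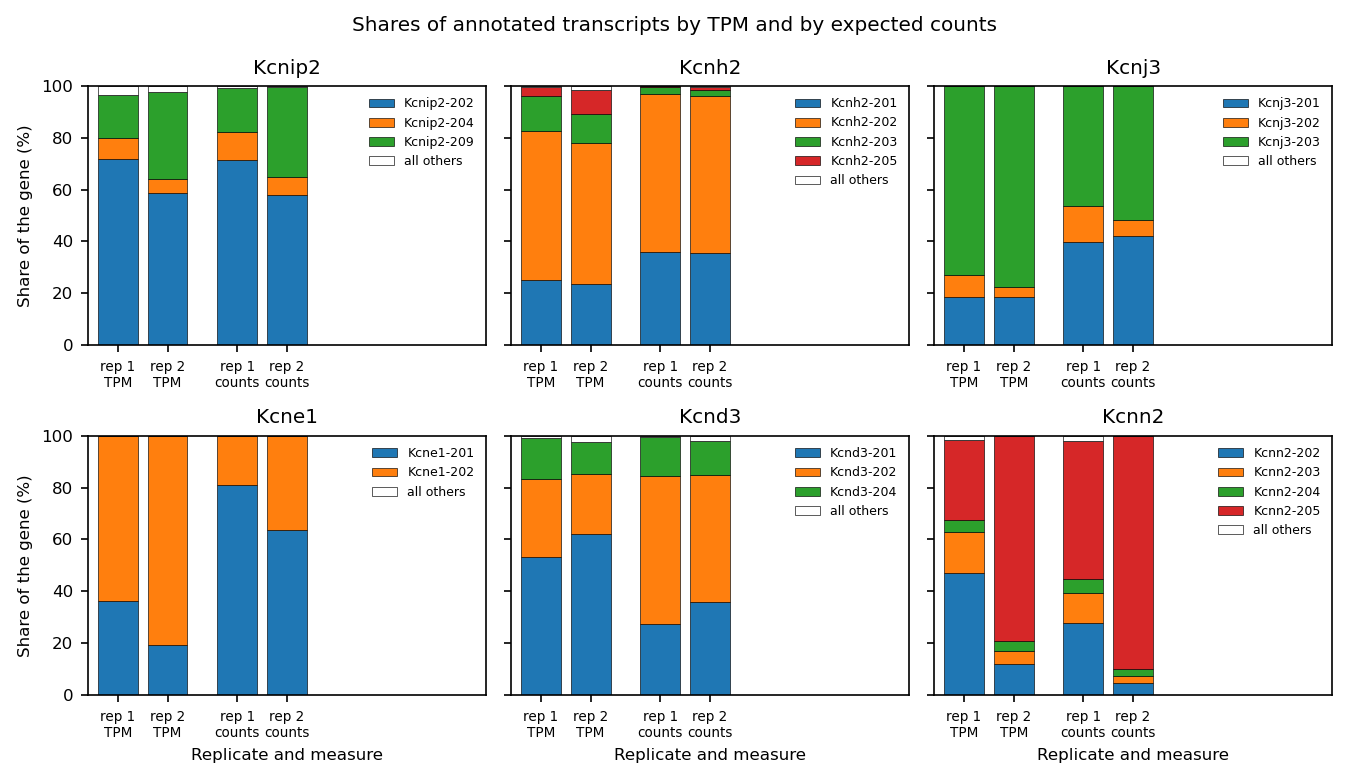
Share of each gene (vertical axis, %) held by its annotated transcripts in replicates 1 and 2, by TPM (left pair of bars) and by expected counts (right pair), for 6 potassium channel genes; transcripts under 5% in all bars are joined as all others. Kcnip2-202 and Kcnh2-202 lead on both measures in both libraries, whereas the leading transcript of Kcne1 and Kcnd3 differs between TPM and counts.

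Differences between the libraries were tested over all 16145 genes with at least 20 counts, by a two-sided exact binomial test on TMM-scaled counts, with an adjusted p (Benjamini-Hochberg) under 0.05 and at least a 2-fold ratio required. The test compares these 2 libraries and not conditions. Of 63 tested members, 6 were called (9.52%), against 11.8% of all tested genes. Higher in replicate 1 were 2 members, Kcnj14 and Kcnv2 (3.57% of all tested genes were higher there), and higher in replicate 2 were 4, Kcna3, Kcnh3, Kcnk1 and Kcnt1 (8.21% of all). Replicate 1 over replicate 2 had a median log2 ratio of -0.09 over the members and 0.01 over all tested genes, with 28 members above 0 and 35 below.

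Kcnj14, an inward rectifier gene known mainly from neurons, differed most. It lies on chromosome 7 (mm10 positions 45816460 to 45824782, minus strand) and had 12.61 TPM from 1928 counts in replicate 1 and 0.37 TPM from 59 counts in replicate 2. The scaled ratio was 39.0, with a 95% counting interval of 30.1 to 51.5, and only 24 tested genes, itself among them, had a ratio as large. Among the 8390 genes whose 2 libraries together gave 1000 counts or more it ranked 3 by ratio toward replicate 1, after Gm10259 and Xist. The genes on either side did not share the difference: Cyth2 had 809 and 1013 counts, a ratio of 0.954, and Grwd1 333 and 558 counts, a ratio of 0.713, neither called. Farther out, Lmtk3 had 17 and 16 counts and Kdelr1 5748 and 7477, not called, and Grin2d had 62 and 160 counts and was called higher in replicate 2. In replicate 1 its level lay above the 9.0 TPM of Kcnj2 and below the 14.88 TPM of Kcnj12, and in replicate 2 it lay below both. Its single annotated transcript, Kcnj14-201, shares 65.0% of aligned coding bases with Kcnj2 and 70.7% with Kcnj12.

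For Kcnv2, replicate 1 gave 949 counts and replicate 2 gave 384, a ratio of 2.95 with a counting interval of 2.62 to 3.33 (adjusted p = 2.73e-78, exact binomial test). Transcripts of liver also moved with replicate 1: Alb, Apoa1, Ttr, Fgb and Serpina1a summed to 12.7 TPM in replicate 1 and 1.04 TPM in replicate 2. These 5 genes were chosen after their values were seen, so calls among them carry no information. The part of liver transcripts in the difference of Kcnj14 and Kcnv2 was not tested.

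The 4 members higher in replicate 2 were all low. Kcna3, a channel of lymphocytes, had 12 counts in replicate 1 and 66 in replicate 2, Kcnh3, a forebrain channel, 9 and 43, Kcnk1, a weakly conducting tandem-pore channel, 8 and 43, and Kcnt1, a sodium-activated channel, 32 and 88. In TPM they stayed at or under 0.57 in both libraries. The ratio of replicate 1 over replicate 2 was 0.217 for Kcna3 (interval 0.107 to 0.405, adjusted p = 9.02e-08 in the exact binomial test), 0.250 for Kcnh3, 0.222 for Kcnk1 and 0.434 for Kcnt1. Beside them, the 5 immune markers summed to 144 TPM in replicate 1 and 295 TPM in replicate 2, with 3 of 5 called higher in replicate 2 and none at 0, and all 6 lung airway markers were called higher there. All 4 adipocyte markers, with sums of 77.3 and 213 TPM, and all 4 erythroid ones were also called higher in replicate 2. The part of these cells in the 4 differences was not tested.

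Ratios between the libraries went with base composition. Over all tested genes with counts in both libraries (n = 15930) the log2 ratio of replicate 1 over replicate 2 fell with the GC content of the longest transcript, with Pearson's r of -0.40 and Spearman's rho of -0.57 across genes, which share the same 2 libraries and are not independent replicates. Over the 63 tested members rho was -0.50, and over the 23 detected ones -0.79. GC content had a median of 53.3% over tested members and 50% over all tested genes. The smooth curve over all genes lay at 0.48 for the detected member of lowest GC content, Kcnj2 (41.2%), and at -0.57 for that of highest, Kcng2 (61.5%). Centred on this curve, the ratio was 1.37 for Kcnj2 (1.90 before), 0.983 for Kcng2 (0.663 before), 0.892 for Kcnk3 (0.654 before), 1.14 for Kcnh2 (0.769 before) and 0.665 for Kcnj11 (0.523 before). The median log2 ratio after centring was -0.02 over the members and -0.01 over all genes.

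**Figure D5:**
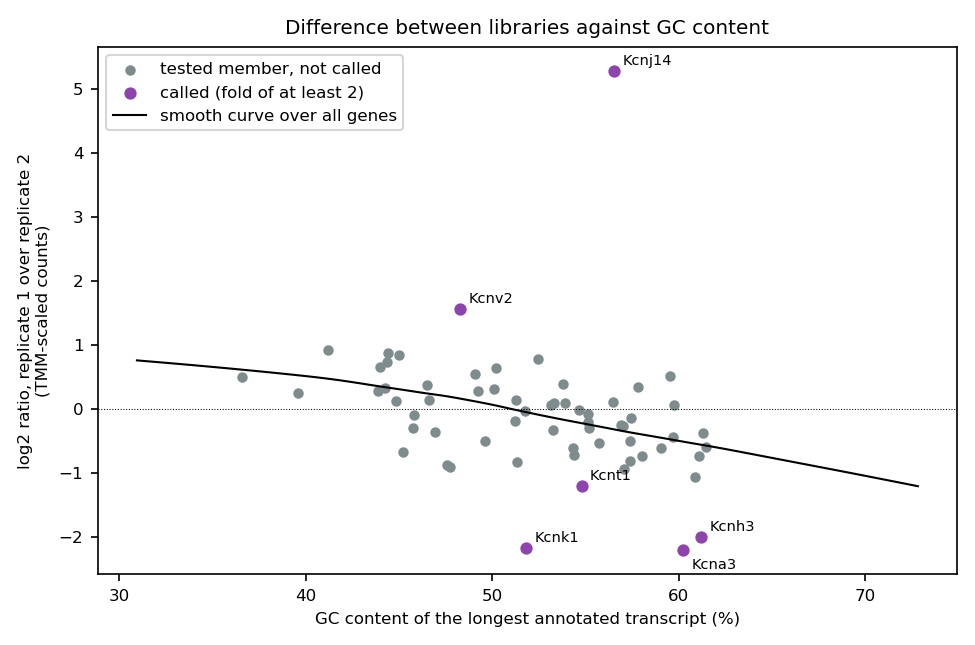
Log2 ratio of TMM-scaled counts, replicate 1 over replicate 2 (vertical axis), against the GC content of the longest annotated transcript (horizontal axis, %) for the 63 tested potassium channel genes, with called genes in purple and the smooth curve over all genes in black. Most members lie near the falling curve, and Kcnj14 lies far above it.

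After this centring 7 members were called, while 9.3% of all genes were. Kcnj14 and Kcnv2 were again called higher in replicate 1, as were 2.08% of all genes, and Kcna3, Kcnh3, Kcnk1, Kcnq5 and Kcns3 higher in replicate 2, as were 7.22% of all genes. The calls that centring added were on few counts: Kcns3 had 26 and 57 (centred ratio 0.474) and Kcnq5 13 and 29 (0.468). For Kcnq5 the adjusted p of the exact binomial test was 0.0499 after centring, just under the limit, and 0.107 before. The call of Kcnt1 ended, with a centred ratio of 0.505.

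Genes outside the family that encode partners or regulators of these channels were read from a list of 23, of which 15 were at 1 TPM or more in both libraries. Calmodulin, the calcium sensor of Kcnn and Kcnq channels, was led by Calm3 with 72.03 and 85.51 TPM, and the caveolin Cav3 had 60.07 and 75.80 TPM. The scaffold Dlg1, which binds the tails of several channels, had 13.04 and 8.18 TPM, and Akap9, which ties kinases to Kcnq1, 2.18 and 1.76 TPM. Of the pacemaker channel genes, Hcn2 led with 8.32 and 17.72 TPM, above Hcn4 with 2.79 and 3.80 TPM. Dpp6, a partner of Kcnd channels, had 20 and 6 counts and Dpp10 had 0. Between the libraries Lrrc52 and Dpp6 were called higher in replicate 1, as were 3.57% of all tested genes. Irx3, Irx5, Lrrc26 and Lrrc38 were called higher in replicate 2, as were 8.21% of all. Lrrc52 had 32 and 13 counts, Lrrc26 0 and 100, and Lrrc38 22 and 131. Irx5, a repressor that sets the gradient of Kcnd2 across the ventricular wall, had 1.32 and 3.10 TPM, and its relative Irx3 3.22 and 8.84 TPM, and after GC centring neither was called. Kcnd2 itself had a ratio of 1.66 before and 1.31 after centring, under the fold limit.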

How the data were processed

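The data are 2 libraries of poly(A)-selected mouse heart RNA. Per the notes that accompany the files, the authors quantified genes and transcripts on mm10 with GENCODE M4, with an aligner and a quantifier not given in the sources used here. Expected counts, as deposited, estimate the fragments of a feature (per the file headers). TPM, also deposited, divides them by effective length. FPKM, deposited by the authors, served as an alternative, and the authors' percent of each gene per transcript was computed here again. Other deposited columns give lengths and credibility bounds. GENCODE M21 on the same assembly (GRCm38) gave symbols, coordinates and sequences for 98.0% of 43346 gene identifiers. The lists on mm9 were not used.

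Rounded counts of genes with 20 or more in total were tested between the libraries by a two-sided exact binomial test, with the expected share set by TMM-scaled sizes (factors 0.957 and 1.04, edgeR 4.0.16, R 4.3.3), Benjamini-Hochberg adjusted p under 0.05 and at least 2-fold. Intervals are 95% exact and cover counting error only. GC centring used a lowess curve (fraction 0.3) over genes with at least 50 counts. The call rule was tested on simulated data with counting noise and planted changes only. That setting leaves out the other differences between these libraries, such as those in cell content and with GC content. DESeq2 1.42.0 size factors were an alternative. Python 3.11.15, pandas 2.3.3 and scipy 1.17.1 were used. Named were members with a mean of at least 1 TPM, pair and called genes, each subfamily's leading member and those at 0 counts; other members and partners were picked with values in view. The planned comparison of proteins was replaced by coding sequences. Members, lists and pairs were chosen with earlier results of these data known. Some genes and sequences are not reported here.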

Additional observations from a re-analysis of the deposited data

How the results depend on the processing

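The number of detected members was 23 and became 28 at 0.5 TPM, 20 at 2 TPM, 26 by posterior mean TPM, 32 with mitochondrial genes and their copies left out, and 37 at 1 CPM. Transcripts of at least 500 nucleotides, an alternative chosen after seeing the data, gave 23. The share of TPM, 0.0584%, became 0.125% without mitochondrial genes and their copies, and the members held 0.150% of expected counts. Calls between the libraries numbered 6 of 63 tested members with the fold limit of 2. They numbered 21 with a limit of 1.5 (7 higher in replicate 1 and 14 in replicate 2) and 33 with none (14 and 19). Over all 16145 tested genes the limit of 1.5 called 1977 higher in replicate 1 and 2436 in replicate 2. With no fold limit these were 5628 and 5313. Total-count scaling called 8 (2 and 6), adding Kcnj11 and Kcns3, and a minimum of 1 count called 9 (2 and 7). Over all genes tested, total-count scaling called 415 and 1602, and the minimum of 1 count called 773 and 1558. By expected counts the log2 ratio turned to 0.19 for Kcnj2 over Kcnj12 and to -0.17 for Kcnj3 over Kcnj5. Single libraries gave 23 to 26 detected members, shares of 0.0492% to 0.0675% and 11 to 12 pairs with the first gene higher. No paired analysis was possible because there is 1 group. The exact sign test on 2 libraries cannot pass a threshold, and with the count minimum of 20 genes below it were not tested.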
